A study of Mus musculus with 24 samples.

Results

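Mouse embryonic stem cells (mESCs) carrying a short hairpin against Med12 were compared with cells carrying a control hairpin after 24 h of retinoic acid (RA). The comparison takes the 3 libraries labelled 24hRA_shMed12 and the 3 labelled 24hRA_shNMC, chosen by their titles alone, which are 6 of the 24 libraries of the series, and covers every gene. RA shMed12 cells are E14TG2a mESCs, a line from blastocysts of the 129/Ola strain, stably transfected with shMed12, from which LIF was withdrawn for 24 h while 1e-06 M all-trans RA was present. RA shNMC cells differ from them by label in the hairpin, shNMC, which has no mammalian target, so both groups share the RA, the loss of LIF and a stably expressed hairpin. Beside them stand RA shCdk8 cells, treated in the same way and carrying a hairpin against Cdk8, and the shMed12 and shNMC cells before treatment, grown feeder-free in serum and LIF (mESC shMed12 and mESC shNMC), with 3 libraries in each. How many hairpin sequences or clones stand behind shMed12 is not stated in these sources. No group lost LIF without receiving RA, so the 2 parts of the treatment cannot be told apart.

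Mediator carries signals from transcription factors bound to enhancers to RNA polymerase II at promoters. Med12 links the kinase Cdk8 or Cdk19 and its cyclin to Med13, and this kinase module binds Mediator reversibly. RA binds nuclear receptors (Rar with Rxr) that sit at target genes, and in mESCs it opens the Hox clusters from their 3′ ends while the pluripotency network is shut down.

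Poly-A RNA was sequenced in strand-specific libraries, and the deposited values are read counts per gene symbol. Gene counts were 48.84 to 53.64 M per RA shMed12 library and 49.45 to 50.97 M per RA shNMC library. Multiply aligned reads took 46.1% to 47.7% of the total with shMed12 and 44.8% to 48.4% with shNMC. Levels are CPM, counts scaled to a common library size by TMM. The 3 counts taken as the limit of detection stood for 0.0535 to 0.0579 CPM in an RA shMed12 library and 0.0532 to 0.0559 CPM in an RA shNMC library. Replicates differed by more than counting noise. The labels do not say whether they are separate cultures, so p-values measure the spread between these samples, which may be technical. Changes are log2 ratios of RA shMed12 over RA shNMC with their standard error (SE), tested by edgeR's quasi-likelihood test with Benjamini-Hochberg adjustment over 16280 genes, and a gene is called where the adjusted p is under 0.05.

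With shMed12, 3463 of 16280 genes rose (21.3%) and 3351 fell (20.6%). By at least 2-fold, 1218 genes rose (7.48%) and 1265 fell (7.77%). All 3 RA shMed12 libraries lay above all 3 RA shNMC libraries for 4924 genes (30.2%) and below them for 4814 genes (29.6%). The median log2 change of all genes was -0.00385, and these shares are the background for every list below.

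**Figure D1:**
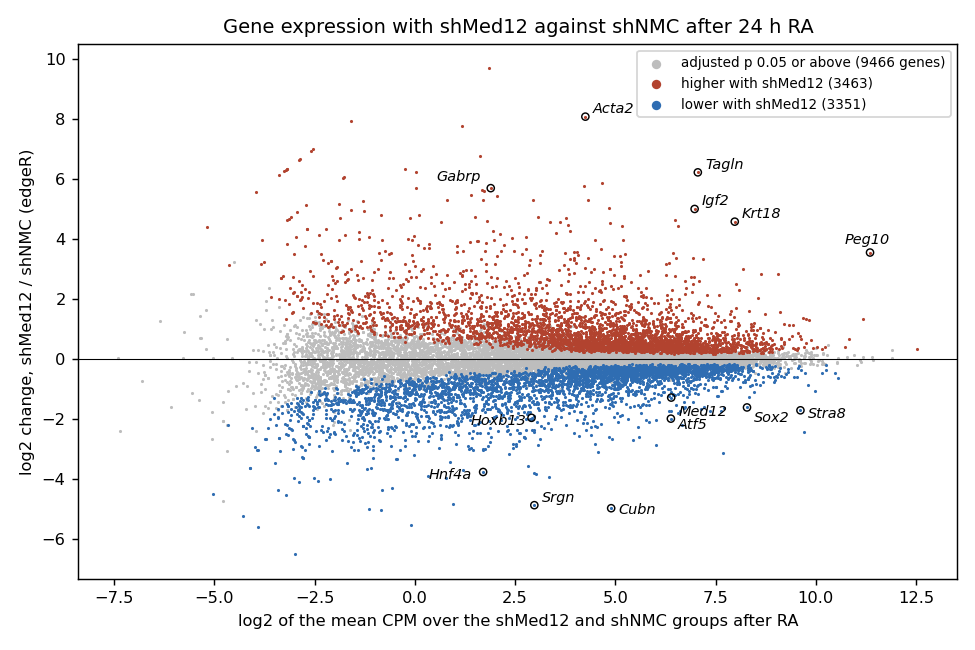
Log2 change of RA shMed12 over RA shNMC (y axis) against the log2 mean level in CPM over both groups (x axis) for 16280 genes, as fitted, so that changes of genes near detection depend on edgeR's prior count. Red points are the 3463 genes that rose and blue points the 3351 that fell at an adjusted p under 0.05. Circled genes are named in the text: Acta2 and Tagln lie far above 0 and Cubn and Srgn far below.

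Med12 itself had 38.8, 45.6 and 61.2 CPM in the RA shMed12 libraries, against 94.1, 120.4 and 144 CPM in the RA shNMC libraries. The groups did not overlap, and the mean was 0.406 of the control mean (log2 change -1.3, SE 0.16, edgeR adjusted p = 1.5e-06). Its paralogue Med12l had 33.6, 35.3 and 31.9 CPM with shMed12 and 14.5, 17.7 and 18.3 CPM with shNMC, and rose (log2 change 1.0, SE 0.21, edgeR adjusted p = 7.3e-04). Of 7 kinase module genes, 1 rose, 4 fell and 2 were not called. Besides Med12, the fallers were Med13 (log2 change -0.31), which tethers the module to Mediator, the kinase gene Cdk19 (-0.51) and the cyclin gene Ccnc (-0.38). The call of Ccnc ended without RA shMed12 replicate 2 or 3 or RA shNMC replicate 1, at edgeR adjusted p = 0.0685, 0.0654 and 0.0763. Cdk8 averaged 48.1 ± 5.4 CPM with shMed12 and 45.6 ± 2.74 CPM with shNMC (mean ± SD, n = 3), with overlapping groups and no call (log2 change 0.08, SE 0.15, edgeR adjusted p = 0.7). Among 26 genes of the Mediator head, middle and tail, 4 rose (15.4%) and 3 fell (11.5%), below the background shares, with a median of 0.10. The risers included the scaffold gene Med14 (0.57) and Med22 (0.63), and the fallers included Med30 (-0.56).

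Polycomb complexes keep developmental genes silent. Of 25 genes of Polycomb repressive complex 1 (PRC1), 5 rose (20%) and 6 fell (24%), shares close to the background. Pcgf5, a Ring1b partner, rose (1.19) while Rybp, which marks variant PRC1, fell (-0.91). The polyhomeotic genes moved apart. Phc1 had 211, 211 and 245 CPM with shMed12, against 464, 448 and 544 CPM with shNMC, and fell (log2 change -1.13, SE 0.16, edgeR adjusted p = 9.9e-06). Phc2 had 89.4, 102 and 95.2 CPM with shMed12, against 46.9, 46.8 and 37.4 CPM with shNMC, and rose (log2 change 1.13, SE 0.14, edgeR adjusted p = 8.9e-07). Neither gene had overlapping groups. Of 12 genes of the second complex, PRC2, which methylates histone H3, Rbbp7 alone rose (1.04), and 5 fell, among them the cofactor gene Aebp2 (-0.54). Without RA shMed12 replicate 2 the PRC2 fallers numbered 3.

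**Figure D2:**
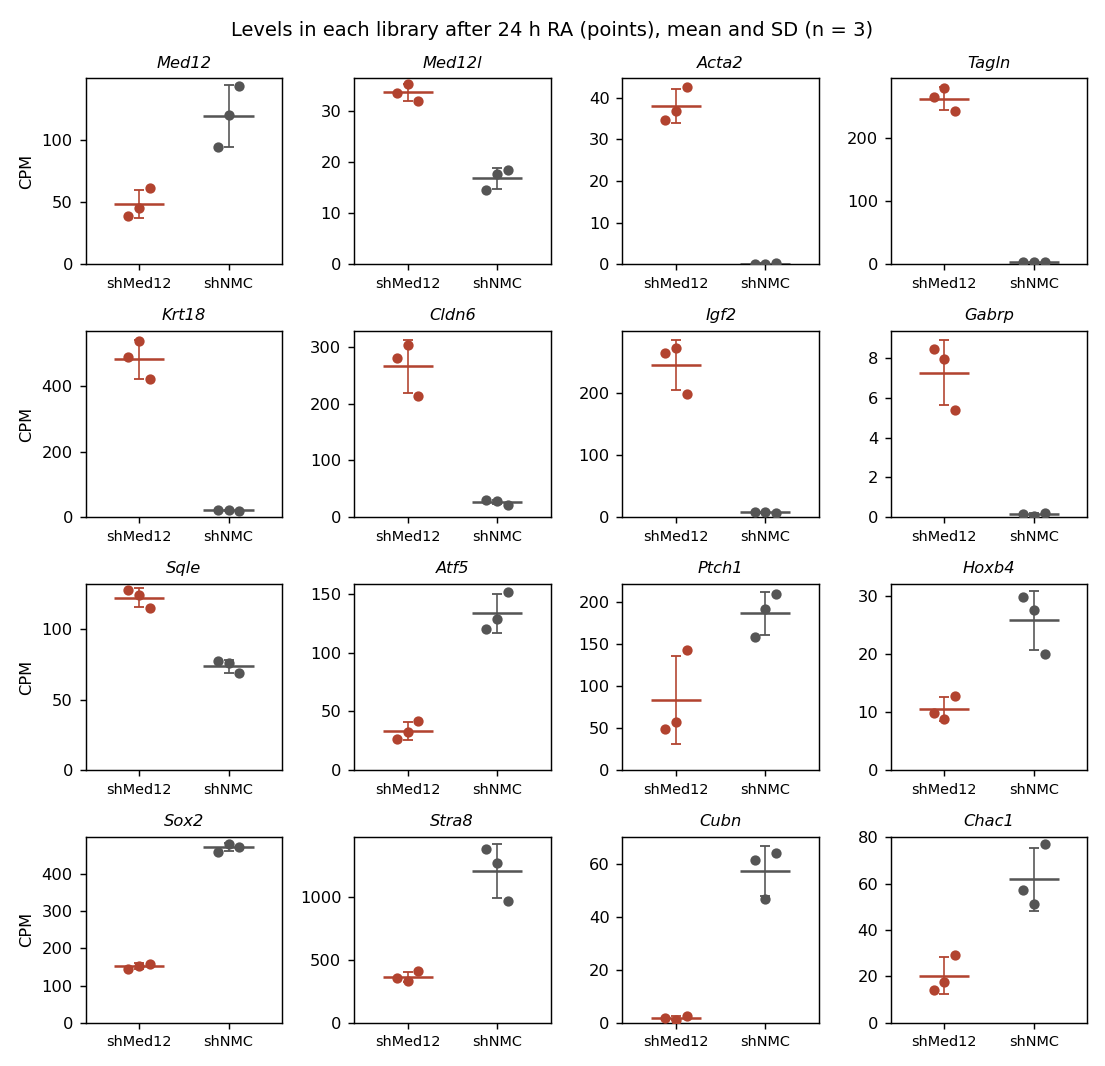
Levels in CPM (y axes, each starting at 0) of 16 genes in the 3 RA shMed12 libraries (red, left) and the 3 RA shNMC libraries (grey, right). Points are libraries, long bars means and whiskers SD (n = 3). In each panel the groups do not overlap, and Ptch1 in RA shMed12 replicate 3 stands nearest to its controls.

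Most HoxB genes and part of the HoxA genes were lower with shMed12, while the most 3′ genes of HoxB were not called. In HoxB 8 of 10 genes fell and 0 rose by edgeR, with a median log2 change of -1.04, and in HoxA 5 of 11 fell and 0 rose, with a median of -0.91. At an unadjusted p under 0.05 and by DESeq2 the risers of both clusters were also 0. Without RA shNMC replicate 1 the HoxA fallers numbered 2. Hoxb4, a hindbrain and trunk gene, had 9.86, 8.73 and 12.8 CPM in the RA shMed12 libraries, against 29.7, 27.6 and 19.96 CPM in the RA shNMC libraries (log2 change -1.3, SE 0.25, edgeR adjusted p = 2.5e-04). Hoxb9 had 13.3, 13.5 and 13.3 CPM with shMed12 and 32.1, 33.4 and 24.9 CPM with shNMC (log2 change -1.17, SE 0.22, edgeR adjusted p = 1.6e-04). The most 5′ gene of its cluster, Hoxb13, had 2.82, 3.55 and 2.76 CPM with shMed12 and 10.2, 11.5 and 14.2 CPM with shNMC (log2 change -1.97, SE 0.33, edgeR adjusted p = 5.2e-05). In these 3 genes every RA shMed12 library lay below every RA shNMC library. Hoxb7 (-1.53), Hoxa4 (-1.11) and Hoxa7 (-1.34) fell as well. Hoxb5 (-1.09) and Hoxa5 (-0.91) were called too, the call of Hoxa5 ending without RA shNMC replicate 1 (edgeR adjusted p = 0.0544).

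The early RA targets at the 3′ end of HoxB gave other values. For Hoxb1 the levels were 35.8, 32.2 and 40.2 CPM with shMed12 and 46.97, 42.97 and 21.6 CPM with shNMC, and the groups overlapped (log2 change -0.04, SE 0.24, edgeR adjusted p = 0.9). Hoxb2 was not called either (log2 change -0.59, SE 0.32, edgeR adjusted p = 0.14). In HoxD 3 of 9 genes fell, among them the most 5′ genes Hoxd12 (-1.86) and Hoxd13 (-1.8). HoxC had 1 riser, Hoxc8, and 1 faller, Hoxc13 (-0.85), among 8 genes, and the risers numbered 0 by DESeq2, when 1 CPM in 3 libraries was required, and without RA shMed12 replicate 1 or 2 or RA shNMC replicate 2 or 3. Without RA shNMC replicate 1 they numbered 2, as did the fallers without RA shNMC replicate 3. Among the cofactors that bind DNA with Hox proteins, Pbx2 (0.49) rose.

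**Figure D3:**
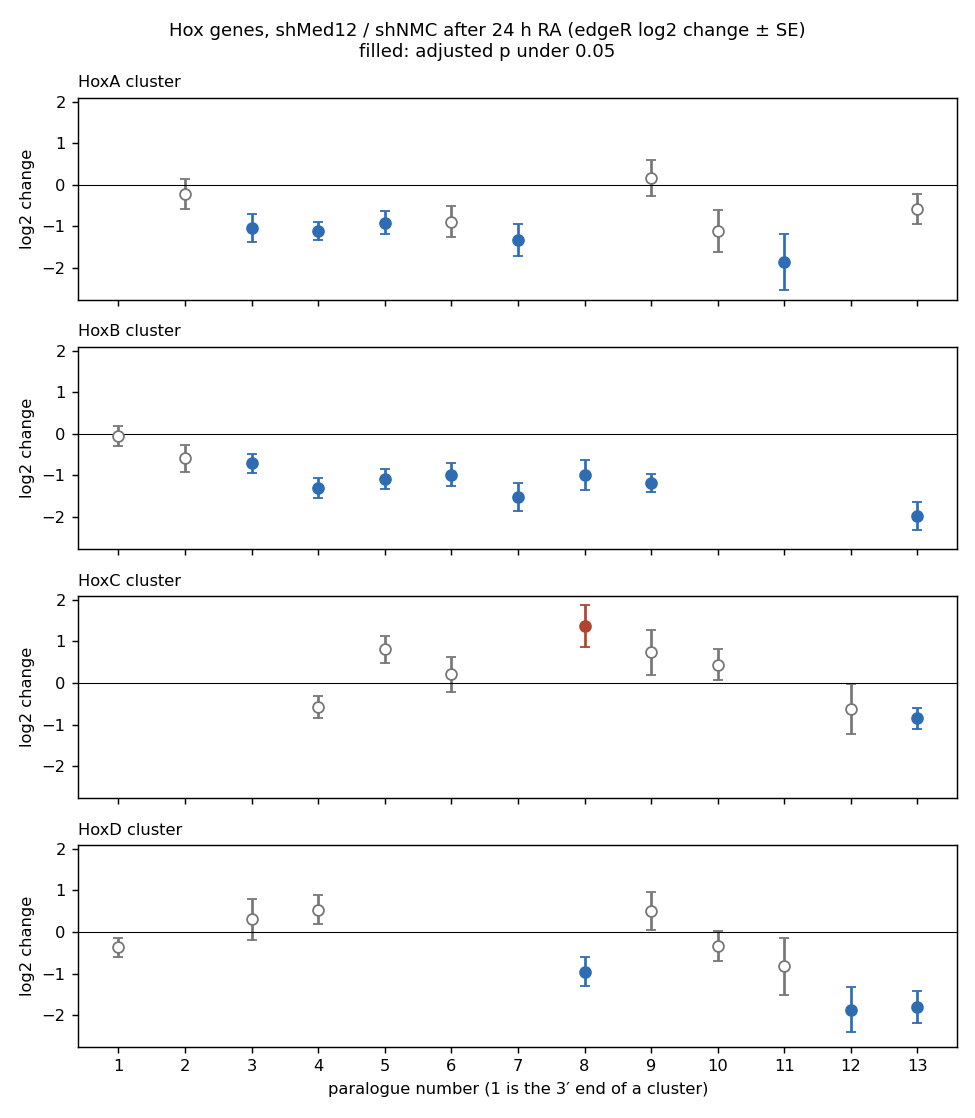
Log2 change of RA shMed12 over RA shNMC (y axes, points with SE) for tested Hox genes, ordered by paralogue number from the 3′ end (x axis), with 1 panel per cluster and genes not reported here left out. Filled points were called at an adjusted p under 0.05, blue for lower and red for higher. In HoxB paralogues 1 and 2 were not called and the other 8 lay below 0.

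Genes that make, carry and degrade RA moved in both directions. Of 23 tested genes of retinoid metabolism 7 rose (30.4%) and 6 fell (26.1%), against 21.3% and 20.6% of all genes. The carriers of RA inside the cell diverged: Crabp2 rose (1.54) and Crabp1 fell (-1.51). Dhrs3, which turns retinal back into retinol, rose (1.05). Aldh1a2, which makes RA, fell (-1.63), and so did Lrat (-1.18), which stores retinol as esters, and the RA-degrading Cyp26b1 (-0.88). Cyp26a1, the classical RA-induced gene, had 283, 275 and 265 CPM with shMed12 and 362, 377 and 259 CPM with shNMC, with overlapping groups (log2 change -0.28, SE 0.23, edgeR adjusted p = 0.34). Among 12 receptors and coregulators, 2 rose and 5 fell. Rara (-0.69) and Rarg (-0.59) fell while Rxra (0.65) rose. Rarb, itself an RA target, averaged 27.3 ± 1.15 CPM with shMed12 and 36.8 ± 6.05 CPM with shNMC (log2 change -0.43, SE 0.16, edgeR adjusted p = 0.038), and its call ended in 5 of the 6 fits that left out a library, at edgeR adjusted p from 0.0544 to 0.153. The list had 3 fallers without RA shMed12 replicate 1 or 2, and 1 riser with no low-count filter or without RA shMed12 replicate 2 or 3 or RA shNMC replicate 1 or 2. The 6 marker genes of RA-treated cells summed to 474 to 500.2 CPM in the RA shMed12 libraries and 410.1 to 595 CPM in the RA shNMC libraries.

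Of 23 tested genes of naive pluripotency 3 rose, 15 fell and 5 were not called, with a median log2 change of -0.72. Sox2 had 144, 153 and 159 CPM in the RA shMed12 libraries, against 459, 481 and 472 CPM in the RA shNMC libraries (log2 change -1.63, SE 0.08, edgeR adjusted p = 2.8e-12). Esrrb, an orphan receptor of the naive network, had 80.8, 91.1 and 102 CPM with shMed12 and 251, 232 and 429 CPM with shNMC (log2 change -1.74, SE 0.21, edgeR adjusted p = 9.6e-07). Neither gene's groups overlapped. Klf4 (-1.58), Klf2 (-1.2), Nr0b1 (-2.0), Tcl1 (-2.69), Zfp42 (-1.28), Nanog (-0.74) and Pou5f1 (-0.70) fell too. The 3 risers of the naive list were Tdh (1.37), which encodes threonine dehydrogenase, Utf1 (1.18) and Dppa3 (1.74). The core pluripotency list of 10 genes had 1 riser, 4 fallers and 5 uncalled genes, with a median of -0.11. Its riser was Lin28a (1.2), which encodes a blocker of let-7 processing. Genes of the primed state split, with 5 risers and 7 fallers of 17. The de novo methyltransferase gene Dnmt3b rose (1.4), as did its cofactor gene Dnmt3l (1.37), while the neuroectodermal Zic2 (-2.11) and Zic5 (-1.65) fell and the demethylases Tet1 (-0.71) and Tet2 (-1.06) fell. Summed over 7 markers, pluripotency genes stood at 778 to 863 CPM with shMed12 and 1359 to 1438 CPM with shNMC.

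Most germline genes fell and most 2-cell-like genes rose. Of 27 germline and meiosis genes 18 fell and 3 rose, with a median of -1.21. Stra8, an RA-induced gatekeeper of meiosis, had 352, 333 and 409 CPM in the RA shMed12 libraries, against 1379.6, 1266 and 968 CPM in the RA shNMC libraries (log2 change -1.72, SE 0.18, edgeR adjusted p = 1.9e-07). Every RA shMed12 library was below every control library. Dazl (-2.12), the cohesin genes Smc1b (-2.37) and Stag3 (-1.62), and Hormad1 (-2.28) and Hormad2 (-1.73), which encode proteins of the meiotic chromosome axis, fell with it. Early embryos use many 2-cell-like genes at genome activation. Of 19 tested genes of this list 15 rose and 0 fell by edgeR (median 1.24). The fallers were also 0 at an unadjusted p under 0.05 and by DESeq2. Pramel7 had 8.93, 8.27 and 7.6 CPM with shMed12 and 0.626, 0.479 and 0.279 CPM with shNMC, with no overlap (log2 change 4.15, SE 0.54, edgeR adjusted p = 2.8e-06). The 15 risers became 9 without RA shMed12 replicate 1 and 7 without RA shMed12 replicate 2 or RA shNMC replicate 3. These genes belong to families of near-identical copies, so reads may be split among them.

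Genes of the trophectoderm, simple keratins and epithelial junctions were among the lists with the largest shares of risers. Of 18 tested trophectoderm genes 14 rose and 1 fell, and of 12 keratin and desmosome genes 10 rose and 2 fell. The trophectoderm faller was not called without RA shNMC replicate 1 or 2, and 1 keratin faller was not without RA shMed12 replicate 1 or 2 or RA shNMC replicate 1. Krt18 had 489, 539.8 and 422 CPM in the RA shMed12 libraries, against 22.5, 20.3 and 18.5 CPM in the RA shNMC libraries (log2 change 4.57, SE 0.28, edgeR adjusted p = 7.5e-11). Its partner Krt8 had 175, 193 and 147 CPM with shMed12 and 7.56, 7.61 and 5.79 CPM with shNMC (log2 change 4.62, SE 0.42, edgeR adjusted p = 1.9e-08). Both pairs of groups stood far apart. Cdx2, the founding factor of trophectoderm and also a posterior gene, rose (4.27), and so did Hand1 (4.01), Gata2 (2.86), Gata3 (2.18) and Wnt7b (3.32). Over 11 trophectoderm markers the summed level was 645 to 839 CPM with shMed12, against 31.4 to 40.8 CPM with shNMC. Most of this sum came from keratins that are also in the keratin list. Krt18, Krt8 and Krt7 averaged 484, 172 and 42.4 CPM with shMed12 and 20.4, 6.99 and 2.72 CPM with shNMC. The placental markers Prl3d1 and Tpbpa had 0 reads in both groups. In bulk RNA a change in the number of cells of a type and a change in RNA per cell cannot be told apart, here and in every list.

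Tight and adherens junction genes moved with the keratins. Of 20 tested 17 rose and 1 fell, with a median log2 change of 1.18. Cldn6, a claudin of early embryonic epithelia, had 280.5, 304 and 213 CPM in the RA shMed12 libraries, against 29.3, 28.7 and 21.9 CPM in the RA shNMC libraries (log2 change 3.32, SE 0.22, edgeR adjusted p = 2.8e-10). Cldn7 had 49.02, 50.7 and 39.9 CPM with shMed12 and 3.5, 3.73 and 3.76 CPM with shNMC (log2 change 3.67, SE 0.26, edgeR adjusted p = 6.0e-10). No library of either group came near the other group's range. Cldn4 (2.6), Cldn3 (2.42), cingulin (Cgn, 1.66), occludin (Ocln, 0.60) and the scaffold gene Tjp1 (0.66) rose. E-cadherin (Cdh1) had 964, 1030.0 and 937 CPM with shMed12 and 505, 517 and 599 CPM with shNMC (log2 change 0.85, SE 0.11, edgeR adjusted p = 1.8e-06), and Epcam rose likewise (1.05). The exception was Cldn18, at 0.067 ± 0.00788 CPM with shMed12 and 0.867 ± 0.202 CPM with shNMC (log2 change -3.64, SE 0.46, edgeR adjusted p = 2.0e-06). The gap junction gene Gjb1 (-3.59) and the junctional adhesion gene Jam2 (-3.13), outside the list, were among the 10 largest falls.

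Contractile genes made 4 of the 10 largest rises, which were taken only from genes whose groups did not overlap. Of 28 genes 21 rose, 3 fell and 4 were not called, with a median log2 change of 1.31. Acta2, which encodes smooth muscle actin, had 34.6, 36.7 and 42.5 CPM in the RA shMed12 libraries, against 0.0536, 0.177 and 0.186 CPM in the RA shNMC libraries (log2 change 8.07, SE 0.64, edgeR adjusted p = 2.4e-09). Tagln, which encodes the actin-binding protein transgelin, had 266, 279 and 243 CPM with shMed12 and 3.57, 3.92 and 3.13 CPM with shNMC (log2 change 6.21, SE 0.42, edgeR adjusted p = 2.9e-10). Acta2 was near the limit of detection in the control libraries, while Tagln was well above it there, and neither gene's groups overlapped. The fast skeletal troponin gene Tnnt3 rose (6.75), and so did skeletal actin Acta1 (5.42), Myl9 (3.29), Tpm1 (2.84), Cnn2 (2.5), Cald1 (2.28) and filamin A (Flna, 1.35). Cardiac actin Actc1 had 86 reads over the RA shMed12 libraries and 2 over the RA shNMC libraries, a depth-scaled ratio of 43.6 (95% interval 11.7 to 366, for counting error alone), and both control reads came from replicate 1. Actin coding sequences are much alike, so reads may be split among these genes. Of 7 smooth muscle markers 5 rose, Myh11 (-0.98), the smooth muscle myosin gene, fell and desmin (Des, 0.17) was not called. In the contractile list Mylk (-1.55) fell as well. Summed over the 7 markers, levels were 401 to 440 CPM with shMed12 and 83.9 to 89.3 CPM with shNMC. The part of such cells in the result was not tested.

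Serum response factor, with its actin-regulated coactivators, binds the CArG box, a run of A and T between CC and GG, and many contractile genes carry it near their start. In the RefSeq promoter table (GRCm38.p6, 250 bases before to 50 after each start), an exact CArG box stood in 425 of 27025 promoters (1.57%). Of the 21 risers 18 had an entry, and 5 of these 18 held a box (27.8%). So did 0 of 2 fallers and 0 of 3 uncalled genes, too few to set against the risers. Over the 23 list members with an entry the share was 21.7%. The 5 are shown because they hold this motif. They are listed 5′ to 3′ on the gene's strand, with the box in capitals. A match is a description of these letters and no evidence of binding.
Actc1 (chr2:114052826-114053125, minus strand, first match 47 bases before the start): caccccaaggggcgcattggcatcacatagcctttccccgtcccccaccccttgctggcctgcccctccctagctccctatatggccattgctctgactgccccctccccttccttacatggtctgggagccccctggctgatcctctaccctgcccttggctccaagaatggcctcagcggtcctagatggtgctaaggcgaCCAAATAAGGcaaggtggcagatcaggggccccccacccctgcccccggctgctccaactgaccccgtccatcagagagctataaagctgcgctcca
Myl9 (chr2:156775214-156775513, plus strand, first match 161 bases before the start): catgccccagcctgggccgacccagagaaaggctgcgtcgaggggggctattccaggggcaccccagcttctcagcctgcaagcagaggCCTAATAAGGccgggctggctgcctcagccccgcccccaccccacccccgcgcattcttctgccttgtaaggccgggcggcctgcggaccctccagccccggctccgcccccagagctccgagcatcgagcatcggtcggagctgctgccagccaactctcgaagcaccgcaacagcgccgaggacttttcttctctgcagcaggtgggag
Acta1 (chr8:123894726-123895025, minus strand, first match 73 bases before the start): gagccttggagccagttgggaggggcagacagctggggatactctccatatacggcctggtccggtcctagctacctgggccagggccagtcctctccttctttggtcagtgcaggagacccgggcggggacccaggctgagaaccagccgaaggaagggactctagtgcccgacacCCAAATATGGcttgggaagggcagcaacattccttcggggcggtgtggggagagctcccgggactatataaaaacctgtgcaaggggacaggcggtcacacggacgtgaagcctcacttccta
Cnn2 (chr10:79988350-79988649, plus strand, first match 56 bases before the start): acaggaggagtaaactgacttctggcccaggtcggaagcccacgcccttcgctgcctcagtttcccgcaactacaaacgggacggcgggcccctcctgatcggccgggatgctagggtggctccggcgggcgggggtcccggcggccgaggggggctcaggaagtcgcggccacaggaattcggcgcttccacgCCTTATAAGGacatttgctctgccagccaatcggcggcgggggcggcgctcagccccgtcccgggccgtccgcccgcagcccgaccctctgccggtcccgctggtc
Vcl (chr14:20929148-20929447, plus strand, first match 227 bases before the start): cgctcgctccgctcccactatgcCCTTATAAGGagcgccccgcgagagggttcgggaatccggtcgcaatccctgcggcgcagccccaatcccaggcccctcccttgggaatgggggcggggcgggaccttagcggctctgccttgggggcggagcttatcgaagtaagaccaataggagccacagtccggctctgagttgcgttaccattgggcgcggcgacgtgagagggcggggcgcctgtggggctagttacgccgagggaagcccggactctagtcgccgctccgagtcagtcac
Among these genes the rise was smallest in vinculin (Vcl), at 304, 290.0 and 293 CPM with shMed12 and 218, 222 and 207 CPM with shNMC (log2 change 0.46, SE 0.06, edgeR adjusted p = 5.7e-06). Acta2 and Tpm1 were not among the matches, and Tagln had no promoter entry, so it was not searched.

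**Figure D4:**
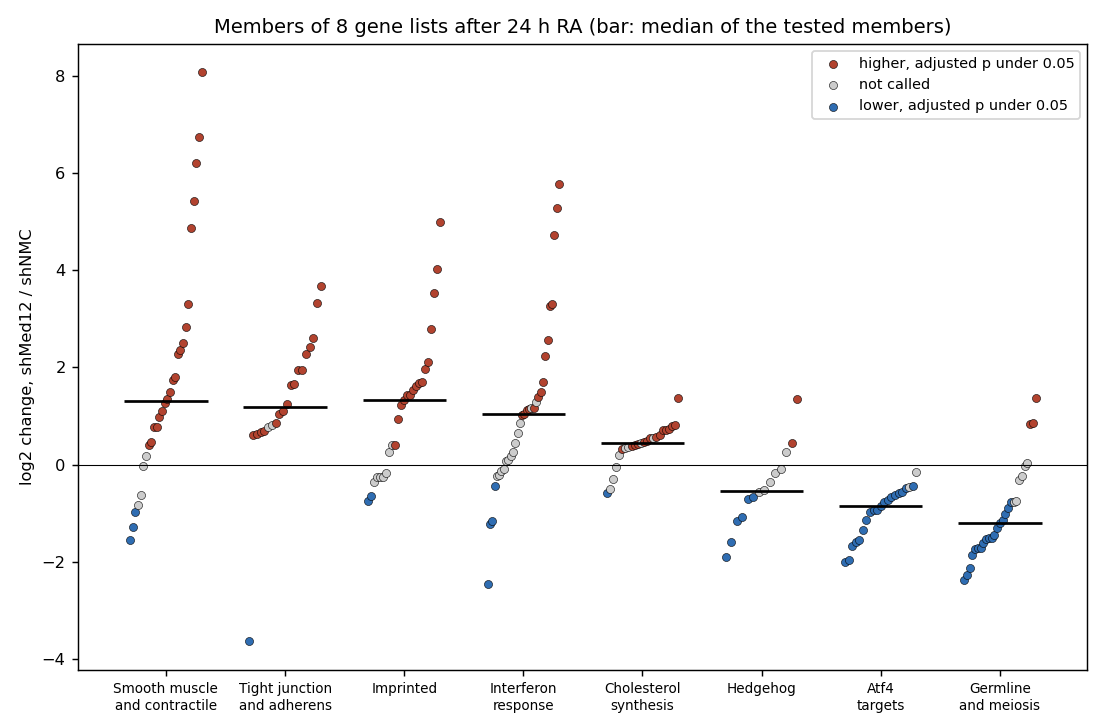
Log2 change of RA shMed12 over RA shNMC (y axis) for the tested members of 8 gene lists (x axis), sorted within each list, with black bars at the medians. Members at 3 counts or fewer in 1 group are drawn at the bound that this floor gives. All called members of the Atf4 target list lie below 0 and 17 of 18 called junction genes above it.

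Matrix genes changed beside the contractile ones. Of 20 collagen genes 11 rose and 3 fell. Col3a1 had 1179 reads over the RA shMed12 libraries and 1 over the RA shNMC libraries, a depth-scaled ratio of 1196 (95% counting interval 214 to 47263), and the control read came from replicate 3. Col12a1 rose (2.7), as did Col1a1 (1.93) and Col18a1 (1.11), a basement membrane collagen, while Col5a3 fell (-1.08). The 3 collagen fallers became 1 without RA shMed12 replicate 2 or RA shNMC replicate 1 or 2. Tenascin C (Tnc) had 7.52, 8.11 and 4.48 CPM with shMed12 and 0.197, 0.355 and 0.279 CPM with shNMC, with no overlap (log2 change 4.58, SE 0.37, edgeR adjusted p = 3.4e-09). Of 25 integrin and laminin genes 12 rose and 7 fell, and the fallers numbered 4 without RA shMed12 replicate 2. The epithelial integrin gene Itga3 rose (2.5) and so did Lama5 (1.16). Lama1, the laminin of the first embryonic basement membranes, fell (-2.06). Caveolin 1 (Cav1) had 4.8, 5.56 and 4.27 CPM with shMed12 and 0.286, 0.479 and 0.223 CPM with shNMC (log2 change 3.87, SE 0.28, edgeR adjusted p = 6.7e-10), and 5 of 7 tested caveola genes rose.

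Fibroblast markers gave a mixed picture, with 8 risers and 4 fallers of 18 tested. Anxa1 (4.43) and Lgals1 (2.98), which epithelia also use, rose, while Thy1 (-1.07) and Ddr2 (-1.57) fell. Periostin (Postn) had 45 reads over the RA shMed12 libraries and 0 over the RA shNMC libraries, at least 15.2-fold higher against the floor of 3 counts per group. The 10 fibroblast markers summed to 62.9 to 75.6 CPM with shMed12 and 39.8 to 42.5 CPM with shNMC, and 4 of them (Col3a1, Dcn, Lum and Postn) had 3 reads or fewer over the RA shNMC libraries. Regulators of epithelial to mesenchymal transition moved apart: Snai1 rose (1.19) and Zeb1, at 9.76, 9.5 and 12.7 CPM with shMed12 and 32.5, 34.5 and 36.7 CPM with shNMC, fell (log2 change -1.7, SE 0.14, edgeR adjusted p = 3.1e-09).

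**Figure D5:**
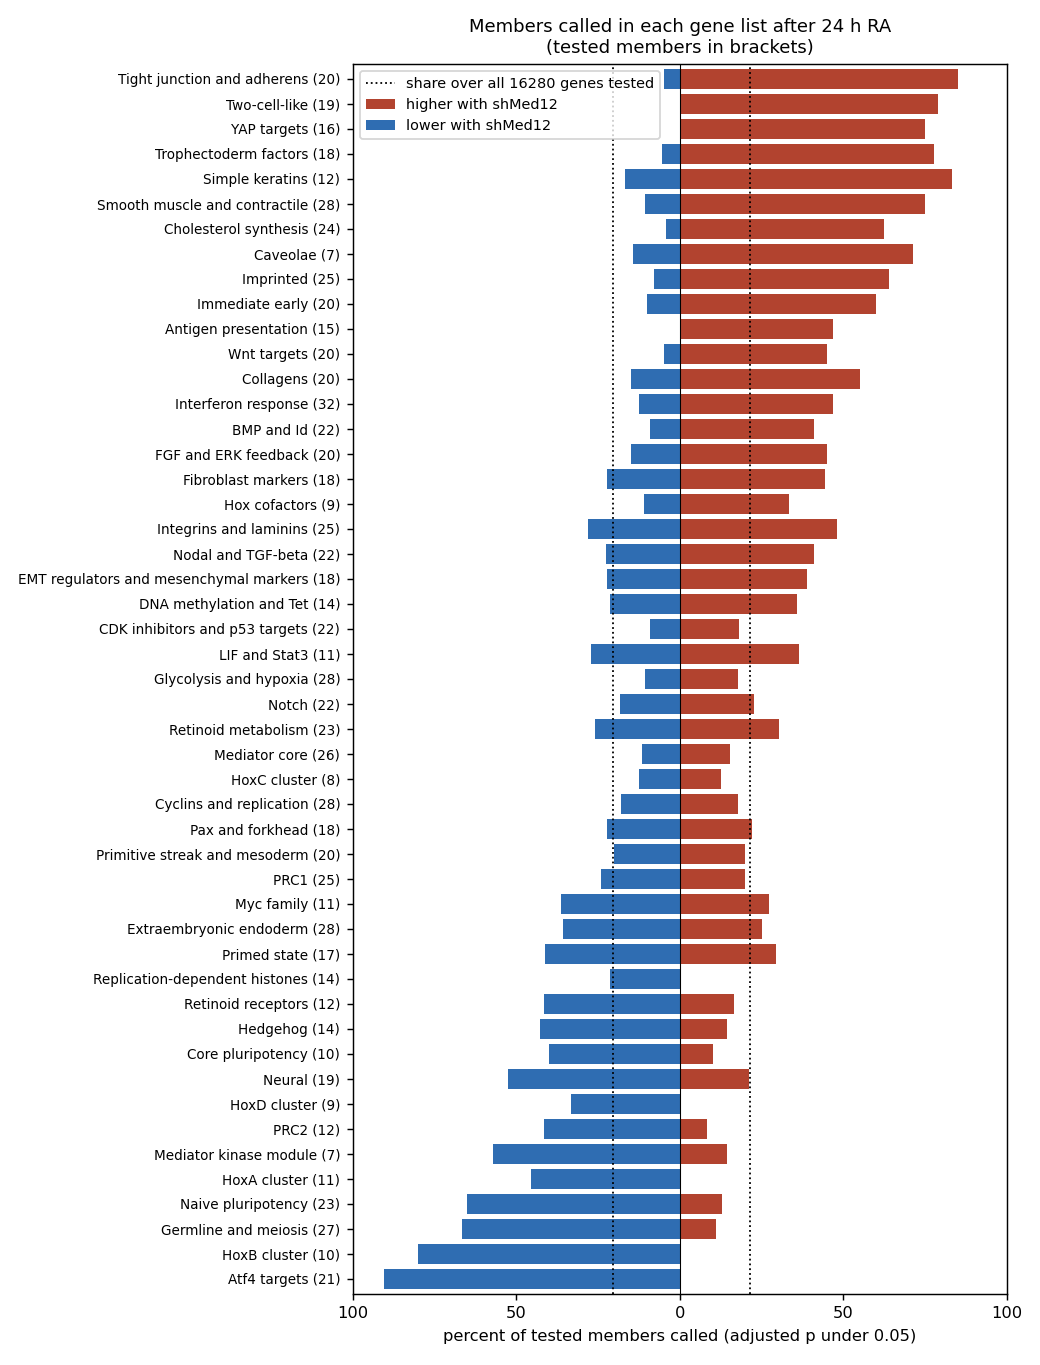
Share of tested members called higher (red, to the right) or lower (blue, to the left) in RA shMed12 over RA shNMC, for each gene list (rows, number of tested members in brackets). Dotted lines mark the shares over all 16280 genes, 21.3% higher and 20.6% lower. Rows are ordered by the share higher minus the share lower, with junction, 2-cell-like and YAP target genes at the top and Atf4 targets at the bottom.

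Targets of several signalling pathways differed in direction. YAP targets, which respond to cell shape and tension, had 12 risers and 0 fallers of 16 by edgeR (median 1.25), with 1 faller at an unadjusted p under 0.05 and 0 by DESeq2. Ankrd1 had 5.65, 5.62 and 5.61 CPM with shMed12 and 0.393, 0.444 and 0.261 CPM with shNMC (log2 change 3.93, SE 0.66, edgeR adjusted p = 6.5e-05). The feedback genes Amotl1 (1.28) and Lats2 (2.17) and the receptor gene Axl (2.22) rose too, as did Cyr61 (2.35). Immediate early genes had 12 risers and 2 fallers of 20. Junb had 13.5, 17.8 and 13.9 CPM with shMed12 and 2.95, 3.0 and 2.83 CPM with shNMC (log2 change 2.36, SE 0.20, edgeR adjusted p = 5.2e-09), and Fosl2 rose (2.62) while Klf10 fell (-0.97). In the FGF and ERK list 9 of 20 rose and 3 fell, and the risers included the receptor gene Fgfr1 (1.07) and the feedback inhibitors Spry2 (1.25), Dusp4 (1.87) and Dusp6 (1.05), while the ERK-induced factor gene Etv5 fell (-0.67). Wnt targets had 9 risers and 1 faller of 20. The fallers numbered 0 without any one RA shMed12 replicate or RA shNMC replicate 3, and 2 by DESeq2. Nkd1, which fell, was not called in these fits without 1 library, nor without RA shNMC replicate 1 (edgeR adjusted p = 0.0579). Sp5, a direct Wnt target, had 7.02, 7.91 and 3.91 CPM with shMed12 and 0.161, 0.213 and 0.0931 CPM with shNMC, with no overlap (log2 change 5.3, SE 0.48, edgeR adjusted p = 1.7e-08).

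Of 14 genes of the Hedgehog pathway (ligands, receptors, factors and targets) 2 rose, 6 fell and 6 were not called, with a median of -0.55, and the risers numbered 1 without RA shMed12 replicate 2 or 3 or RA shNMC replicate 1 or 2. Ptch1, the receptor that Hedgehog signalling itself induces, had 48.4, 56.6 and 143 CPM in the RA shMed12 libraries, against 158, 191 and 209 CPM in the RA shNMC libraries (log2 change -1.17, SE 0.31, edgeR adjusted p = 0.0047). RA shMed12 replicate 3 lay just below the lowest control library and the other two far below. Without that replicate the log2 change was -1.82. Hhip, an induced inhibitor, fell (-1.6), as did the coreceptor gene Boc (-1.9) and the factor gene Gli2 (-0.67). Gli1 fell (-0.72), with the call lost without RA shMed12 replicate 1 or 2 (edgeR adjusted p = 0.0857 and 0.0821). Gli3, whose product mostly represses, had 127, 108 and 104 CPM with shMed12, against 47.5, 46.5 and 40.2 CPM with shNMC, and rose (log2 change 1.34, SE 0.15, edgeR adjusted p = 3.2e-07).

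In the Nodal and TGF-beta list 9 of 22 genes rose and 5 fell. The ligand gene Tgfb2 had 14.2, 13.7 and 10.8 CPM with shMed12 and 0.804, 0.71 and 0.819 CPM with shNMC (log2 change 4.05, SE 0.26, edgeR adjusted p = 1.3e-10). Its signal transducer Smad3 (1.15) rose. The activin subunit gene Inhbb (-3.82) fell, and so did the Nodal inhibitor gene Lefty2 (-1.19). The BMP list had 9 risers and 2 fallers of 22, with Msx1 (2.45) and the inhibitory Smad7 (0.82) higher and Bmp6 (-1.64) lower. In the LIF pathway the ligand gene Lif rose (1.11) while its receptor gene Lifr (-1.32) and Stat3 (-0.56) fell. Of 22 Notch genes 5 rose (22.7%) and 4 fell (18.2%), shares close to the background. The Notch risers numbered 3 without RA shMed12 replicate 1 or RA shNMC replicate 2. Notch3 (0.97) and Lfng (1.16) rose and Notch4 (-1.95) and the ligand gene Dll1 (-1.61) fell.

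Of 19 tested neural genes 4 rose and 10 fell, with a median of -0.79, and the risers numbered 2 when 1 CPM in 3 libraries was required. Ncam1, a neural adhesion gene, had 7.35, 8.22 and 9.67 CPM with shMed12 and 33.9, 36.5 and 35.4 CPM with shNMC (log2 change -2.07, SE 0.17, edgeR adjusted p = 3.9e-09). Elavl3 (-1.78), Stmn2 (-0.79) and Sox1 (-1.12) fell. Nestin (Nes), a filament gene of neural and other progenitors, rose (log2 change 2.09, SE 0.18, edgeR adjusted p = 8.5e-09). Summed over 6 neural markers the level was 121 to 126 CPM with shMed12 and 75.2 to 85 CPM with shNMC, and Nes was the only called riser of the 6.

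Extraembryonic endoderm genes had 7 risers and 10 fallers of 28, with a median of -0.55. Cubn, which encodes the endocytic receptor cubilin of visceral endoderm, had 1.72, 1.14 and 2.58 CPM in the RA shMed12 libraries, against 61.8, 46.9 and 64.4 CPM in the RA shNMC libraries (log2 change -4.99, SE 0.78, edgeR adjusted p = 3.4e-05). Hnf4a had 0.347, 0.463 and 0.502 CPM with shMed12 and 6.72, 5.56 and 5.92 CPM with shNMC (log2 change -3.78, SE 0.38, edgeR adjusted p = 8.4e-08). In both genes the groups were far apart, and both were among the 10 largest falls, which were taken only from genes whose groups did not overlap. Srgn (-4.89), Lama1 and Foxa1 (-1.55) fell too. Gata6 fell (log2 change -1.49, SE 0.46, edgeR adjusted p = 0.013), but not without RA shMed12 replicate 3 (edgeR adjusted p = 0.0559), and Gata4 was not called (log2 change -0.34, SE 0.53, edgeR adjusted p = 0.64). Apoe (1.2) and Cited1 (1.47) rose, and the risers numbered 4, 4 and 3 without RA shNMC replicates 1, 2 and 3. The fallers numbered 16 in a fit of 18 libraries. Over 8 endoderm markers the sum was 66.2 to 72.6 CPM with shMed12 and 120.1 to 143 CPM with shNMC. Endothelial markers also stood lower, at 43.8 to 58.6 CPM with shMed12 and 172 to 214 CPM with shNMC over 4 genes, mostly Pecam1 (-2.23), which mESCs express as well. The summed blood markers were 6.96 to 8.38 CPM with shMed12 and 6.07 to 7.63 CPM with shNMC, and none was called. The part of such cells in these results was not tested.

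Interferon-response genes rose in part. Of 32 tested 15 rose and 4 fell, with a median of 1.04. The guanylate-binding protein gene Gbp2 had 44.1, 45.2 and 27.1 CPM with shMed12 and 1.09, 1.08 and 0.801 CPM with shNMC (log2 change 5.29, SE 0.37, edgeR adjusted p = 5.0e-10). Gbp1 (5.77), the immunity GTPase gene Irgm1 (3.3) and Isg15 (3.27) rose, as did the RNA sensor gene Ddx58 (2.23) and the factor gene Irf1 (1.14). Mx1 (-2.47) and Oasl1 (-1.17) fell. Of 15 genes of antigen processing 7 rose and 0 fell by edgeR, with 0 fallers also at an unadjusted p under 0.05 and by DESeq2. The risers included the peptide transporter gene Tap1 (1.77), Tapbp (1.65) and the immunoproteasome gene Psmb8 (2.8). The chemokine genes Cxcl11 (5.61, and 6.22 without RA shNMC replicate 1) and Ppbp (5.46) were among the 10 largest rises.

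Targets of Atf4, the factor of the amino acid and integrated stress response, had the largest share of fallers among the 49 lists, with 19 fallers and 0 risers of 21 by edgeR (90.5%, against 20.6% of all genes) and a median of -0.85. The risers were also 0 at an unadjusted p under 0.05 and by DESeq2. Atf4 itself had 331, 339 and 414 CPM in the RA shMed12 libraries, against 581, 521 and 575 CPM in the RA shNMC libraries (log2 change -0.63, SE 0.12, edgeR adjusted p = 1.6e-04). Atf5 had 26.7, 32.00 and 41.4 CPM with shMed12 and 120.0, 129 and 152 CPM with shNMC (log2 change -2.0, SE 0.38, edgeR adjusted p = 2.3e-04). Chac1, which encodes an enzyme that degrades glutathione, had 14.3, 17.5 and 29.3 CPM with shMed12 and 57.3, 51.2 and 76.8 CPM with shNMC (log2 change -1.6, SE 0.24, edgeR adjusted p = 1.3e-05). In all 3 genes the groups were apart. Fallers covered several branches: the stress factor genes Ddit3 (-1.68) and Trib3 (-1.34), serine synthesis with Psat1 (-0.73) and Psph (-1.56), folate-linked Shmt2 (-0.94) and Mthfd2 (-0.98), asparagine synthetase (Asns, -0.58), and the amino acid transporters Slc7a5 (-0.66) and Slc7a11 (-1.97).

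Atf4 binds composite sites, searched here as TTGCNTCA only, so sites of other forms were not counted. On either strand these letters stood in 996 of 27025 RefSeq promoters (3.69%) and in 2 of the 17 fallers with an entry (11.8%). These 2 promoters are printed because each holds the site more than once, with sites in capitals. Here too a match is no evidence of binding.
Chac1 (chr2:119350992-119351291, plus strand, first match 250 bases before the start): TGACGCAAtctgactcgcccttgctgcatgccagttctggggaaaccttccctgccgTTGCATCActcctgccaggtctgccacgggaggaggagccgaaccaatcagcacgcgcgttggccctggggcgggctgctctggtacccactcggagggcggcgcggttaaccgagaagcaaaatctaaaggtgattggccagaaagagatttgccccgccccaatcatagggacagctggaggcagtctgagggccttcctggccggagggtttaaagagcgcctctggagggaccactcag
Slc7a11 (chr3:50443564-50443863, minus strand, first match 66 bases before the start): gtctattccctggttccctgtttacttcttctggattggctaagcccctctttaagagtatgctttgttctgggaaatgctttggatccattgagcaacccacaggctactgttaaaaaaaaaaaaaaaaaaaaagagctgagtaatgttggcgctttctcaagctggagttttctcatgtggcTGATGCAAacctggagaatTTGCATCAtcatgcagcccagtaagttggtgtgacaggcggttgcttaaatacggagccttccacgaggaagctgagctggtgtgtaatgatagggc
Slc7a11, which encodes the cystine transporter, had 1.35, 1.25 and 2.1 CPM with shMed12 and 5.74, 5.63 and 7.06 CPM with shNMC, with no overlap (log2 change -1.97, SE 0.29, edgeR adjusted p = 1.3e-05).

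Most cholesterol synthesis genes rose, by small amounts. Of 24 genes 15 rose and 1 fell, with a median of 0.44. The sterol regulatory element, searched as TCACNCCAC on either strand, stood in 330 of 27025 RefSeq promoters (1.22%), in 0 of 8 risers with an entry and in 1 of 6 uncalled genes. The squalene epoxidase gene Sqle had 127, 124 and 115 CPM with shMed12 and 77.2, 75.6 and 68.5 CPM with shNMC (log2 change 0.73, SE 0.13, edgeR adjusted p = 8.0e-05). In both groups the libraries lay close together and the groups did not overlap. Fdps (0.61) rose too, and Hsd17b7 fell (-0.59). The pathway's regulator gene Srebf2 (log2 change 0.36, SE 0.17, edgeR adjusted p = 0.095) was not called. The count depends on single libraries: it was 9 without RA shMed12 replicate 2 or 3, and 8 without RA shNMC replicate 1 or 2. Of 28 glycolysis and hypoxia genes 5 rose (17.9%) and 3 fell (10.7%), no more than the background shares. The risers numbered 3 without RA shMed12 replicate 2 or RA shNMC replicate 3. The fallers numbered 1 without RA shMed12 replicate 1 or 2 or RA shNMC replicate 2. The glucose transporter gene Slc2a3 was higher (1.31) and Pfkp lower (-1.64).

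Imprinted genes, expressed from 1 parental allele, rose in 16 of 25 tested cases and fell in 2 (1 without RA shNMC replicate 1 or 2), with a median log2 change of 1.33. Igf2, a fetal growth factor gene, had 264, 271 and 198 CPM in the RA shMed12 libraries, against 8.63, 8.2 and 6.2 CPM in the RA shNMC libraries (log2 change 4.99, SE 0.48, edgeR adjusted p = 4.4e-08). H19, the maternally expressed RNA of the same domain, had 56.7, 66.7 and 40.98 CPM with shMed12 and 7.61, 8.24 and 8.03 CPM with shNMC (log2 change 2.78, SE 0.26, edgeR adjusted p = 2.3e-08). Both neighbours thus rose, with no overlap between groups. Peg10, a retrotransposon-derived gene of placenta, had 5201, 4905 and 4325 CPM with shMed12 and 472, 507 and 264 CPM with shNMC (log2 change 3.54, SE 0.32, edgeR adjusted p = 2.0e-08). Peg3 (2.11), Mest (1.68) and, of the Dlk1 domain, Meg3 (1.33) and Rian (1.23) rose. Phlda2 (-0.74), which restrains placental growth, fell, and Igf2r, whose product clears Igf2, was not called (log2 change -0.17, SE 0.13, edgeR adjusted p = 0.32). Total counts per gene do not show which allele was read.

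Cell cycle genes gave 5 risers and 5 fallers of 28, shares close to the background. The risers numbered 3 without RA shNMC replicate 2 and the fallers 3 without RA shMed12 replicate 2. Cdk6 (1.85) and Ccnd1 (1.11), which drive entry into the cycle, rose, and Top2a (-0.36) and Mcm2 (-0.35) fell slightly. Of 22 inhibitors and p53 targets 4 rose (18.2%) and 2 fell (9.09%), no more than the background shares. The fallers numbered 1 without RA shNMC replicate 1 or 2. Cdkn2b (1.82) and Perp (2.76) were higher. In the Myc family Myc rose (1.68), as did Mnt (0.41), which opposes it, while Mga (-0.61) and Mxd1 (-0.66) fell.

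The shMed12 effect after RA was set against the effect of the same hairpin in mESCs, which uses none of the same libraries. In mESCs 3352 genes rose (20.6%) and 3242 fell (19.9%). Of the RA risers 65.4% also rose in mESCs (67.6% of the mESC risers), and of the RA fallers 61.9% also fell there (64% of the mESC fallers). In opposite directions, 34 genes rose after RA and fell in mESCs, and 34 fell after RA and rose in mESCs. The difference of the effects was called for 283 genes as higher after RA (1.74%) and for 537 as lower after RA (3.3%), and these counts moved with the libraries fitted. In a fit of 18 libraries they were 1184 and 1458, without RA shNMC replicate 2 the higher ones were 136, and without mESC shMed12 replicate 1 the lower ones were 324.

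Gabrp, which encodes a GABA receptor subunit of epithelia, gave the largest difference. It had 8.47, 7.97 and 5.4 CPM in the RA shMed12 libraries, against 0.143, 0.071 and 0.205 CPM in the RA shNMC libraries, and 0.369, 0.282 and 0.403 CPM in the mESC shMed12 libraries, against 1.56, 1.4 and 1.2 CPM in the mESC shNMC libraries. The hairpin's log2 effect was 5.68 after RA and -1.96 in mESCs, a difference of 7.65 (SE 0.45, edgeR adjusted p = 7.3e-10). Hoxb4 stood the other way: its effect was -1.3 after RA and 0.69 in mESCs, where it was not called. The difference was -1.99 (edgeR adjusted p = 0.016), and its call was lost without mESC shMed12 replicate 1. Otx2, an anterior neural factor, fell after RA (-2.93) and was not called in mESCs (0.59), with a difference of -3.52 (edgeR adjusted p = 3.7e-04). Cyp26a1 was higher with shMed12 in mESCs (1.54) and not called after RA, with a difference of -1.82 (edgeR adjusted p = 0.0064). Stra8 fell less after RA (-1.72) than in mESCs (-3.24), a difference of 1.52 (edgeR adjusted p = 0.0012). Among the lists, the effect was called as lower after RA for 8 of 20 collagen genes, 7 of 28 contractile genes and 4 of 7 caveola genes, against 3.3% of all genes. The median effects of these lists were above 0 in both states and larger in mESCs. They were 0.69 after RA and 1.63 in mESCs for collagens, 1.31 and 2.12 for contractile genes, and 1.10 and 2.53 for caveola genes. In the Atf4 list 0 of 21 differences were called by edgeR, 9 were lower after RA at an unadjusted p under 0.05 and 2 by DESeq2. In the cholesterol list 0 of 24 were called, and 6 were higher at an unadjusted p under 0.05 and 0 by DESeq2.

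Against RA shCdk8 cells, whose hairpin targets the kinase of the same module, 3470 genes were higher with shMed12 (21.3%) and 3277 lower (20.1%). This comparison shares the RA shMed12 libraries with the main one, so its values stand beside the others without an overlap. Cdk8 itself averaged 48.1 ± 5.4 CPM in RA shMed12 cells and 9.9 ± 2.24 CPM in RA shCdk8 cells (mean ± SD, n = 3). Med12 averaged 48.5 ± 11.5 CPM with shMed12 and 131 ± 13.3 CPM with shCdk8. Each gene was lower in the cells whose hairpin targets it. Acta2 had 34.6, 36.7 and 42.5 CPM with shMed12 and 0.81, 0.788 and 0.823 CPM with shCdk8 (log2 change 5.55, SE 0.52, edgeR adjusted p = 3.5e-08). Of the junction genes 17 of 20 were higher with shMed12 than with shCdk8, and of the contractile genes 21 of 28. Of the HoxB genes 8 of 10 were lower with shMed12, of the germline genes 17 of 27 and of the Atf4 targets 15 of 21. Ddit3 was one of the Atf4 targets not called against shCdk8, at 10.8 ± 2.88 CPM with shMed12 and 11.2 ± 2.93 CPM with shCdk8 (log2 change -0.05, edgeR adjusted p = 0.94). Of the cholesterol genes, 7 were higher and 2 lower out of 24.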

How the data were processed

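The deposited files, 1 per library, hold raw counts of reads for each gene symbol, as the authors made them. The submitters' processing notes name bcl2fastq 1.8.4, STAR 2.3.1z13, SAMtools 1.2, HTSeq 0.6.1p1, DESeq2 1.6.3 and build mm9, with no roles. Annotation and strand setting are not stated there, so reads of overlapping or antisense genes may be shared. The 5 entries that name no gene stayed out of library sizes, and the share of multiply aligned reads among them is given with the depths above.

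Counts of all 24 libraries (8 groups of 3) entered a single edgeR 4.0.16 fit (R 4.3.3). After filterByExpr by group 16280 of 22609 symbols remained. TMM scaling and robust dispersion were followed by the quasi-likelihood F test with a mean for each group, two-sided, with Benjamini-Hochberg adjustment over all genes tested and calls under 0.05. The SE was taken as the log2 change over the root of F. Contrasts were RA shMed12 against RA shNMC, against RA shCdk8, the same hairpin in mESCs, and the difference of the effects between states. The fit was tested on simulated data with the same dispersion for every gene and no replicate effect. That test does not cover a spread that differs between genes or replicates that vary together. A gene with 3 counts or fewer over a group is given as a ratio of counts or as a bound.

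The comparison, the 49 gene lists of textbook membership, the markers and the tests were chosen with earlier results of these data known. Named were the kinase module, the 10 largest rises, falls and differences in each direction between states (at least 5 CPM in a group, and for rises and falls no overlap of groups, without unnamed gene models, pseudogenes or histone genes), 14 reference genes and, where a list had 3 calls or more, its 2 risers and 2 fallers of lowest p. Further list members were named as examples after their values were seen, and some genes under the rule are not reported here. Alternatives were DESeq2 1.42.0, median-ratio size factors, no filter, 1 CPM in 3 libraries, fits of fewer groups, a replicate block and leaving out each library. The fit of 18 libraries left out the mESC control and mESC shRing1b groups, which share the estimate of the spread in the main fit. Multiply aligned reads took 20.0% to 21.7% of the total in these groups and 44.1% to 49.1% in the other libraries. Gene counts were 27.4 to 34.1 M per library in these groups and 37.8 to 57.3 M in the others. Promoters came from RefSeq (GRCm38.p6) by symbol, with no coordinates taken from the mm9 files.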

Additional observations from a re-analysis of the deposited data

Results flagged for a closer look

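For 61 of the named genes the shMed12 effect differed between the states: the log2 effect after RA minus the log2 effect in mESCs passed edgeR's interaction test at an adjusted p under 0.05. It was higher after RA for 27 genes and lower for 34, and 22 of the 61 calls were lost under at least 1 alternative. Lost were those of Sp5, Gli2, Stat3, Peg3, Tcl1, Myc, Med22, Neurod1, Cldn4, Tnc, Myl9, Myh11, Cald1, Hoxb4, Hoxb13, Irgm1, Psmb8, Lrat, Med12l, Pecam1, Rybp and Stmn2, and the other calls held. All values below are these differences on the log2 scale, n = 3 libraries in each of the 4 groups.

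Higher after RA than in mESCs were the receptor subunit gene Gabrp (7.65), the G protein gene Gna14 (3.07), the ligand genes Fgf17 (2.78) and Fgf10 (2.02), the epithelial factor gene Pou2f3 (2.41), Wfikkn1 (2.39) and Gjb5 (1.97). Of neural factor genes, Neurod1 (2.15) and Sox1 (2.13) were on this side. Signalling genes were Sp5 (2.25), Spry2 (1.38), Junb (1.28), Smad7 (0.77), Gli2 (0.67) and Stat3 (0.43). Growth genes were Cdk6 (1.56) and Myc (1.36), and imprinted genes H19 (1.62) and Peg3 (0.90). The rest were Ddx58 (1.96), Tdh (1.72), Rarb (1.66), Stra8 (1.52), Col2a1 (1.22), Cldn4 (1.14), Tet2 (0.80) and Med22 (0.53).

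Lower after RA were the membrane and matrix genes Cav1 (-5.03), Cav2 (-3.04), Bgn (-2.98), Tnc (-2.81) and Col1a1 (-1.4). With them stood the contractile genes Myl9 (-1.52), Myh11 (-1.44) and Cald1 (-0.84). Developmental factor genes were T (-3.83), Otx2 (-3.52), Foxi3 (-3.25), Zfp703 (-3.01), Hand1 (-2.04), Hoxb4 (-1.99), Hoxb13 (-1.93) and Tcf15 (-1.05), with the ligand gene Wnt3 (-2.03). Pluripotency genes were Sox2 (-0.75) and Tcl1 (-0.95). Immune genes were Irgm1 (-2.58), Oasl2 (-2.41), Psmb8 (-2.34), Ido2 (-3.06), Ccrl1 (-3.44) and Ms4a4d (-3.61). The rest were Csn3 (-3.18), Cyp26a1 (-1.82), Lrat (-1.06), Cdkn1c (-1.33), Med12l (-1.22), Pecam1 (-1.1), Rybp (-0.65), Stmn2 (-0.57) and Aebp2 (-0.49).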

How the results depend on the processing

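In the comparison of RA shMed12 with RA shNMC, 244 of 269 called named genes kept their call under every alternative tried and 25 lost it under at least 1. Leaving out 1 library at a time gave 2724 to 3065 genes higher and 2613 to 3106 lower. For the same comparison a fit of 18 libraries gave 4505 higher and 4487 lower, and a fit of only the compared groups 4233 and 4127. Without 1 library the comparison with RA shCdk8 gave 2741 to 3087 higher and 2483 to 3086 lower, and that in mESCs 2811 to 3257 higher and 2386 to 2849 lower. Median-ratio size factors left the median of all genes at -0.00388 and the share of higher calls at 50.8%.

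The differences between states moved most. Without 1 library they numbered 136 to 255 higher after RA and 324 to 575 lower. A fit of 18 libraries gave 1184 and 1458, a fit of only the compared groups 709 and 1528, and DESeq2 gave 508 higher. The cause was not tested.

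Replicate numbers pair the groups by number only: for RA shMed12 and RA shNMC, residuals of same-numbered libraries correlated at 0.32, 0.0669 and 0.355, and 1 of these is under 0.1. With the replicate block, only the compared groups fitted, 5165 genes were higher and 5068 lower than with shNMC. Against shCdk8 5296 were higher and 5151 lower, and 1425 differences were higher and 2283 lower after RA. Of 98 counts in the gene lists, 17 moved by over 1.5 times in the fit of 18 libraries and 7 in the fit of only the compared groups, all to larger counts. Likewise 24 counts moved with the block, and all 24 became larger, among them the risers of the Mediator core (11) and Wnt targets (14) and the fallers of PRC1 (11) and imprinted genes (6). The calls of Hoxb5, Lefty2 and Ptch1 were lost with it (edgeR adjusted p = 0.131, 0.058 and 0.0821), and 7 uncalled named results passed, among them Cyp26a1 (edgeR adjusted p = 0.00416) and Gata4 (edgeR adjusted p = 0.00141). Each RA shMed12 library correlated best with the RA shNMC library of its own number, a hint from the data and not from the design.

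Named genes that changed sign were uncalled. Cdk8 ranged from -0.0433 (without RA shMed12 replicate 1) to 0.143 over fits without 1 library, and Zfp703 from -0.333 to 0.0129 (without RA shNMC replicate 2). Hoxb1 ranged from -0.348 to 0.16 and stood above 0 without RA shMed12 replicate 2 (0.0308) or RA shNMC replicate 1 or 2 (0.16 and 0.0488), and at 0.00982 with the replicate block. Ms4a4d ranged from -0.413 to 0.132 and stood above 0 without RA shNMC replicate 1 or 2 (0.119 and 0.132), and at 0.0227 with the block. Counting limits genes near the floor of 3 counts per group, and the spread between libraries limits abundant ones.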

Other observations

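Several of the largest changes lie outside the groups described above. Among the falls of RA shMed12 against RA shNMC, Hydin, which encodes a protein of motile cilia, had 3.84, 5.1 and 5.67 CPM with shMed12 and 36.3, 41.3 and 49.6 CPM with shNMC (log2 change -3.12, SE 0.21, edgeR adjusted p = 3.0e-10). Slc11a1, a metal transporter gene of phagocytes, averaged 1.05 ± 0.20 CPM with shMed12 and 15.1 ± 9.4 CPM with shNMC (mean ± SD, n = 3; log2 change -3.84, SE 0.41, edgeR adjusted p = 2.0e-07), and its log2 change was -3.23 without RA shNMC replicate 3. The chromatin reader gene Trim66 (-3.94) and the kinase gene Cdk15 (-3.19) fell too. Among the rises, Sh3rf2 had 7.31, 7.29 and 4.88 CPM with shMed12 and 0.214, 0.124 and 0.0559 CPM with shNMC (log2 change 5.59, SE 0.54, edgeR adjusted p = 5.0e-08).

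Of 20 streak and mesoderm genes 4 rose and 4 fell, close to the background shares, and each count dropped to 2 or 1 when some single libraries were left out (the risers for RA shMed12 replicate 1 or 2 or any RA shNMC replicate, the fallers for RA shMed12 replicate 1 or 3 or RA shNMC replicate 2 or 3). Wnt3, the ligand gene that starts the streak, rose (2.42), and Tcf15 fell (-1.22). Of 18 Pax and forkhead genes 4 rose (22.2%) and 4 fell (22.2%), shares close to the background. Foxp4 (0.63) and Foxo1 (0.56) were higher and Foxp1 (-0.95) and Pax2 (-1.56) lower. The risers numbered 2 without RA shMed12 replicate 2, and the fallers 2 when 1 CPM in 3 libraries was required. Poly-A-selected libraries hold little RNA of replication-dependent histones. Of 14 tested genes 3 fell (21.4%), close to the background share, among them Hist2h2be (-1.28).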
